A study of Mus musculus with 2 samples.

Results

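The 41 nuclear genes described here encode subunits of the 5 complexes of oxidative phosphorylation and enzymes of the tricarboxylic acid (TCA) cycle. They were taken as a named list out of the 55450 genes of the deposited matrices. No cut on a measured value chose them, but earlier results of these data were known when the list was made. Of the 41, 11 belong to complex I, 4 to complex II, 4 to complex III, 5 to complex IV, 5 to complex V and 12 to the cycle. UMI counts, which count molecules rather than reads, were read in CD45+ cells sorted by FACS from subcutaneous B16F10 tumours, a transplantable mouse melanoma, at day 10. The WT library came from Kcnj2f/f mice, in which Kcnj2 carries loxP sites without Cre, and the KO library from Lyz2-Cre-Kcnj2f/f mice, in which Cre is driven by the myeloid Lyz2 locus; the cells of 3 mice were pooled for each library. Both groups therefore carried the floxed allele and the same tumour. Ages are not given in the sources used here, and lymphoid cells and the injected tumour cells are not cells in which Lyz2 is known to be active. With 1 library a genotype there was no replicate check: every interval below is a 95% interval for counting error only, and no p-value was computed.

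Complexes I and II pass electrons from NADH and succinate to ubiquinone, complex III passes them to cytochrome c, complex IV passes them to oxygen, and complex V makes ATP from the proton gradient that complexes I, III and IV build up. The TCA cycle oxidises acetyl groups in the mitochondrial matrix and supplies the NADH and succinate; complex II is both an enzyme of the cycle and a member of the chain. In macrophages the cycle is known to be interrupted during inflammatory activation, when aconitate is drawn off to itaconate by the enzyme that Acod1 encodes, and T cells and tumour cells raise respiratory and biosynthetic use of the cycle when they proliferate.

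The promoters of such genes are known for sites of NRF1, the ETS factor GABP, ERR-alpha and YY1, so the letters of these sites were searched in RefSeq promoter windows (GRCm38.p6, 250 bases before to 50 bases after the start). Of the 41 genes, 31 were matched in the promoter table, and 14 of these (45.2%) held at least 1 of the searched motifs, against 25.4% of 17492 protein-coding genes with a window of the same length. The NRF1 motif, GCGCACGCGC (GCGCGTGCGC on the other strand) or GCGCATGCGC, was found in 5 (16.1%, against 3.54% of all genes). CCGGAAG of the ETS factors (CTTCCGG on the other strand) was found in 6 (19.4% against 12.9%). AAGGTCA of ERR-alpha (TGACCTT) was found in 2 (6.45% against 4.73%) and AAGATGG of YY1 (CCATCTT) in 4 (12.9% against 7.18%). The windows of the members had a median of 59.8% G or C and 20.5 CG steps, against 56.3% and 13 over the windows of all protein-coding genes. A match is a description of letters and does not show that a factor was bound. Windows are shown for Sdhd, which held motifs of 3 factors, Idh3g, which held 2, Uqcrc1, an example with NRF1 alone, and Idh2, the member whose level varied most between cell classes and whose window held none. Letters are 5′ to 3′ on the gene's strand, and capitals mark the matches.
Sdhd (chr9:50603800-50604099, minus strand): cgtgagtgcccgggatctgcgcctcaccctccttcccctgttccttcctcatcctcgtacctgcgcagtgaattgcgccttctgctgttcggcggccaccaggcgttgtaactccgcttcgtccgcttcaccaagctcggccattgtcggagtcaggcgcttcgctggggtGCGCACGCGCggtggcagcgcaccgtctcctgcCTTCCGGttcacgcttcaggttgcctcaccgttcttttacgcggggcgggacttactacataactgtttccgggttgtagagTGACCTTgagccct
Idh3g (chrX:73786848-73787147, minus strand): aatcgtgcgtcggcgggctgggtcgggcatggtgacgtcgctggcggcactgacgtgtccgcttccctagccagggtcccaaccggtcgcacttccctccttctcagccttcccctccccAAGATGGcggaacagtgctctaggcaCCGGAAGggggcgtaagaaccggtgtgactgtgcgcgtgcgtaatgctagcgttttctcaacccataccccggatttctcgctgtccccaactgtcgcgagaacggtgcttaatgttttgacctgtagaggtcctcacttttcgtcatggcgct
Uqcrc1 (chr9:108936398-108936697, plus strand): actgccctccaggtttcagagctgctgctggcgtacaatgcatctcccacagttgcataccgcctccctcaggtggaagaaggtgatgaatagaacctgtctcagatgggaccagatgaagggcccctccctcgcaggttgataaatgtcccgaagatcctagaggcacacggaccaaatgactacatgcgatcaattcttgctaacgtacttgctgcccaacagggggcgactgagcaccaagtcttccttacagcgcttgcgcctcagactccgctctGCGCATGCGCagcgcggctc
Idh2 (chr7:80115301-80115600, minus strand): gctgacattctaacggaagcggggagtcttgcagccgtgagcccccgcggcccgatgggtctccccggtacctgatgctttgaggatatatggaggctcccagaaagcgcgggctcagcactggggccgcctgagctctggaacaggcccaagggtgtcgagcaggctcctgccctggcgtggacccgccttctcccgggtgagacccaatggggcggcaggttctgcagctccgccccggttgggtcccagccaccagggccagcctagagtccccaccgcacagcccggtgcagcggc
In the Sdhd window the NRF1 match and CTTCCGG lie apart from TGACCTT near the 3′ end, and in the Idh3g window AAGATGG and CCGGAAG stand close together. By the GENCODE M21 annotation the 41 genes lie on 19 chromosomes, with 5 on chromosome 9 and 2, Ndufa1 and Idh3g, on chromosome X.

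The filters left 8936 cells with a median of 4398.5 UMIs in the WT library and 5687 with a median of 8021 UMIs in the KO library, from totals of 55219440 and 57047535 UMIs, and 61 kept cells of each library shared a barcode with a cell of the other. Clusters were named from marker lists, and each class name below stands for cells that are like that type by their markers (macrophage-like, CD8 T cell-like and so on). The classes with at least 50 cells in each library were macrophages (510 WT and 806 KO cells), monocytes (325 and 403), cDC1 (200 and 340), cDC2 (626 and 1041), migratory DC (302 and 481), pDC (213 and 143), CD8 T cells (1443 and 299), CD4 T cells (597 and 322), regulatory T cells (96 and 124), gamma-delta T cells (66 and 52), NK cells (354 and 313), B cells (1329 and 339), melanoma cells (123 and 87) and a cluster led by cell cycle genes (377 and 181). Clusters with a mean mitochondrial share above 7% were kept apart as high-mitochondrial clusters (1762 WT cells, 19.7%, and 649 KO cells, 11.4%), because that share bears on the subject. None of the 41 genes (0) was among the 2000 variable genes that built the clusters. Kcnj2 stood at 24.2 (WT) and 9.81 CPM (KO) in macrophages (log2 ratio -1.31, interval -1.74 to -0.87) and at 8.34 and 2.36 CPM in monocytes. The labels do not say which part of Kcnj2 was deleted, so these 3′ counts check the labels only in direction.

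The summed level of the 41 genes, in UMIs scaled to the class total (CPM), separated the classes far more than the genotypes. It was highest in melanoma cells, at 19385 (WT) and 18517 CPM (KO). Among the immune classes it was highest in cDC1 (10324 and 9940.2 CPM) and in the cluster led by cell cycle genes (10192 and 10403 CPM), followed by cDC2 (9404 and 8868 CPM). Macrophages held 7494 (WT) and 6841 CPM (KO), below monocytes at 8449.6 and 8409 CPM. B cells held 5683 and 5256 CPM, and the lowest classes were neutrophils, with 4142 CPM in 145 WT cells and 3001 CPM in 24 KO cells, and the high-mitochondrial clusters, with 3491 and 3165 CPM. The ranking of 14 classes was nearly the same in both libraries (Pearson's r 0.969, Spearman's rho 0.895, a description over classes that share each library's depth). Neighbours in the middle of the order did not keep their places in both libraries: NK cells (7734 and 8172 CPM) stood below CD4 T cells (7817 and 6889 CPM) in WT and above them in KO.

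**Figure D1:**
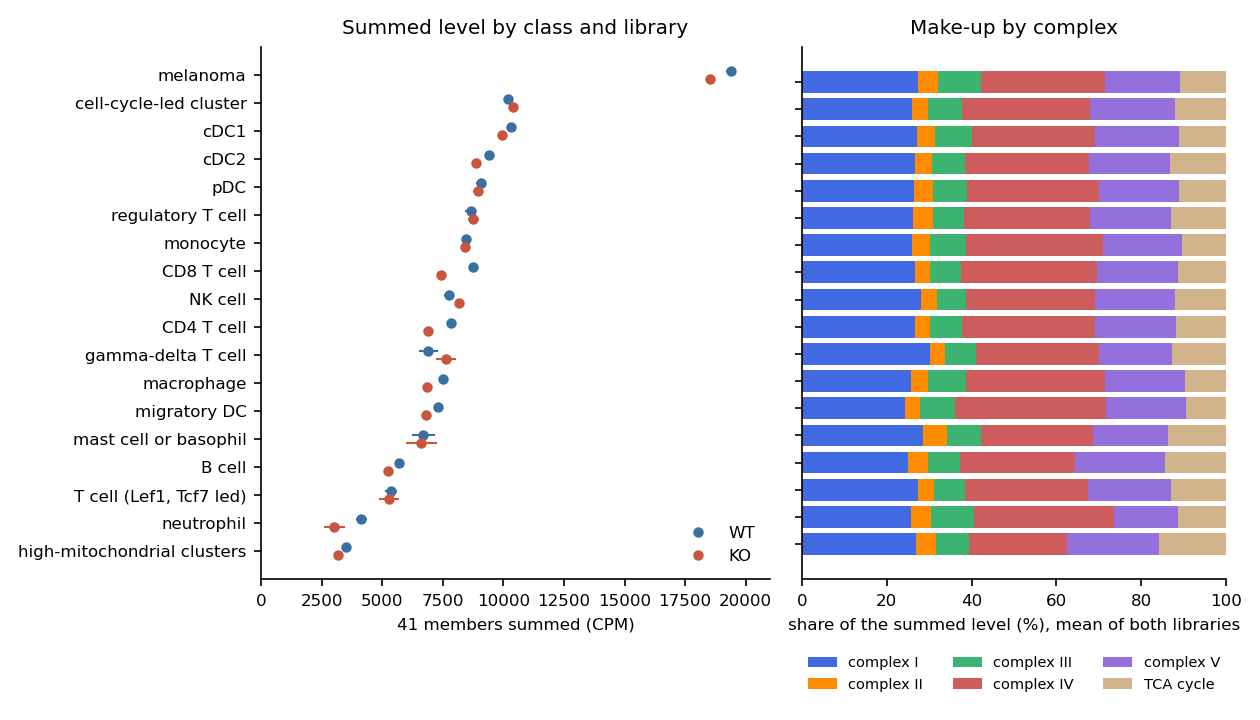
Left, summed level of the 41 genes (x axis, CPM) in each class (y axis); points are the WT and KO libraries and bars are exact Poisson 95% intervals. Right, the share (x axis, %) of each complex and of the TCA cycle in that sum, as the mean of both libraries. Melanoma cells stand at 19385 and 18517 CPM, above every immune class, and the bars at right split each sum by complex.

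In single cells the share of UMIs from the 41 genes was again highest in melanoma cells and lowest in neutrophils among the classes named next. The median share of a cell's UMIs from the 41 genes was 1.48% in WT and 1.63% in KO melanoma cells, 0.702% and 0.654% in macrophages, 0.858% and 0.722% in CD8 T cells and 0.305% and 0.189% in neutrophils. After thinning each cell to 2000 UMIs, which left 46 and 30 melanoma cells, 467 and 778 macrophages and 1388 and 294 CD8 T cells, the medians were 1.73% and 1.85% in melanoma cells, 0.70% and 0.65% in macrophages and 0.85% and 0.75% in CD8 T cells. These 3 classes kept their order at equal depth, while within melanoma cells the medians stood higher in KO and the summed level higher in WT. The melanoma class was mixed, with median depths of only 811 and 770 UMIs. At a finer clustering 61 WT and 42 KO cells formed a melanoma cluster, with median depths of 10212 and 113428 UMIs and summed levels of 21198 and 18640.4 CPM. The other cells of the class fell in a cluster of 62 and 46 cells (median depth 658 UMIs) that took the fibroblast name. Fibroblast markers summed to 2237 and 24.8 CPM over the class, erythroid markers to 5571 and 0.492 CPM and melanoma markers to 15887 and 18769.6 CPM. Their part in the values of the class was not tested.

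Single genes differed in how far they followed the sum. Over the same 14 classes the median member spanned a range of 1.73 on the log2 scale between its highest and lowest class, below the median of 2.13 for the 3021 genes that averaged 50 CPM or more (quartiles 1.43 and 3.83). By the mean log2 level of both libraries, the highest class was the melanoma cells in 34 of the 41 genes, and the lowest was the B cells in 21. The exceptions with a top class among immune cells were Fh1 and Ndufa6 in cDC2, Cs in cDC1, Dlst in monocytes, Idh3b in CD8 T cells, Ndufb7 in the cluster led by cell cycle genes and Sdha in B cells. Single libraries differed in some genes. Sdha was highest in gamma-delta T cells in WT and Ndufb7 in regulatory T cells in KO. In KO the melanoma cells were not the highest class for Mdh1, Idh3g and Ndufa2.

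**Figure D2:**
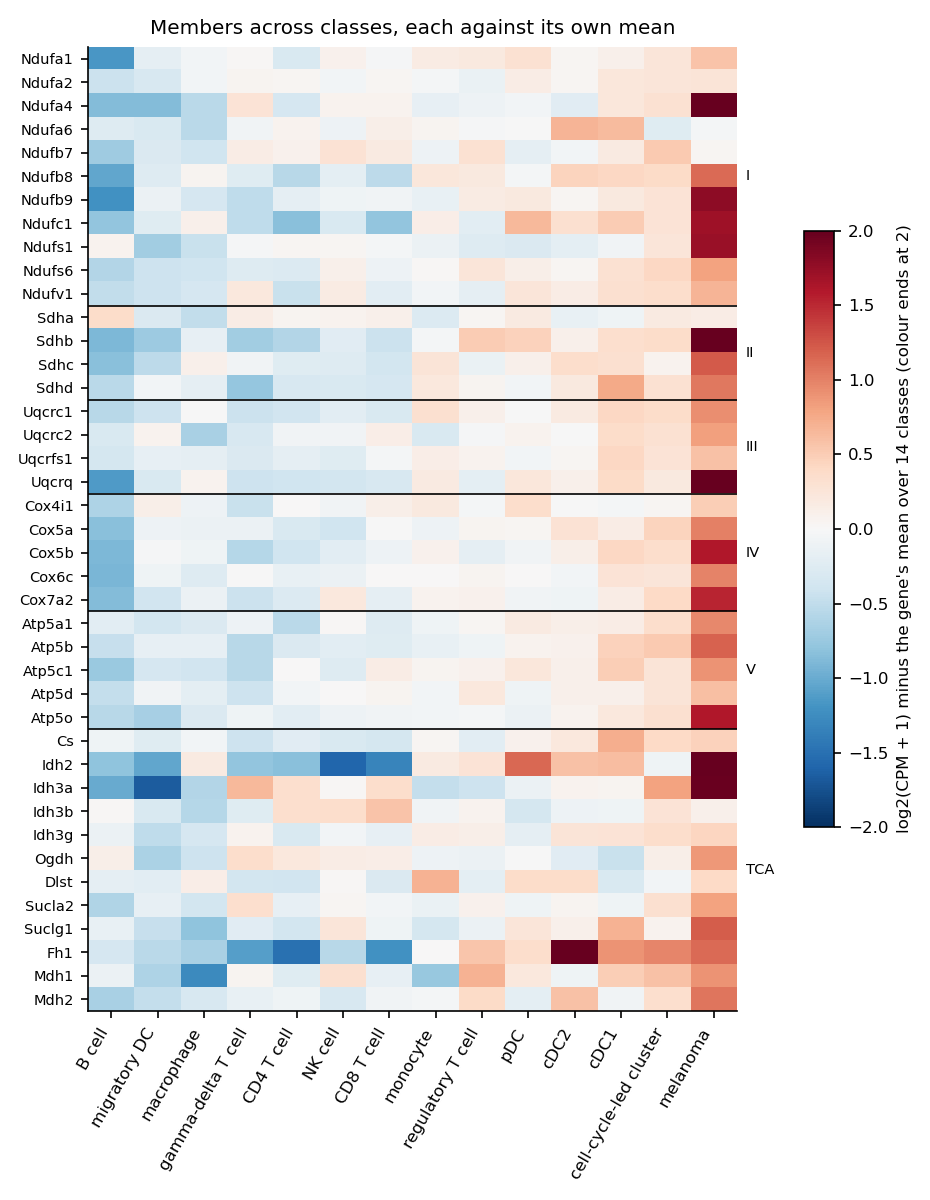
Each row is 1 of the 41 genes, grouped by complex I to V and the TCA cycle, and each column 1 of 14 classes, ordered by summed level; colour is the mean log2(CPM + 1) of both libraries minus the gene's own mean over the classes. The melanoma column is the reddest in 34 rows and the B cell column the bluest in 21, whereas Fh1 peaks in cDC2 and Sdha is nearly flat.

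The 5 genes with the widest range were Idh2, Idh3a, Fh1, Uqcrq and Ndufa4. Idh2, the NADP-dependent isocitrate dehydrogenase of mitochondria, spanned 33.3-fold, from 299 (WT) and 314 CPM (KO) in melanoma cells to 11.1 and 6.04 CPM in NK cells. Among immune cells it was highest in pDC (61.3 and 58.6 CPM) and cDC2 (46.9 and 34.5 CPM), and it was low in CD8 T cells (13.3 and 7.49 CPM). Idh3a, the catalytic subunit of the NAD-dependent isocitrate dehydrogenase, spanned 12.5-fold, from 182 and 195 CPM in melanoma cells to 16.9 and 11.7 CPM in migratory DC. These enzymes act on the same substrate, yet their order among immune classes differed: in CD8 T cells Idh3a stood at 70.9 and 51.2 CPM, above the 46.5 and 40.4 CPM of pDC.

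Fh1, fumarase, was the cycle gene most tied to 1 immune class. It stood at 176 (WT) and 163 CPM (KO) in cDC2, above melanoma cells (104 and 80.4 CPM) and cDC1 (79.6 and 76.0 CPM), and at 18.2 and 10.7 CPM in CD4 T cells, a range of 11.3-fold. Macrophages and migratory DC held 30.5 and 22.2 CPM and 29.5 and 27.0 CPM. A UMI of Fh1 was found in 67.4% of WT and 67.1% of KO cDC2 (median depths 11430.5 and 13646 UMIs), against 7.37% and 4.35% of CD4 T cells (4360 and 3996 UMIs). Thinned to 2000 UMIs a cell, the shares were 26.5% and 22.6% in cDC2 and 3.30% and 1.29% in CD4 T cells, so the gap between the classes was present at equal depth in both libraries. No class is known to lack fumarase, so no class gives a background share from free RNA, and the CD4 T cell share is the lowest of the pair.

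Uqcrq, a small subunit of complex III, stood at 1344 and 1348 CPM in melanoma cells and 172 and 135 CPM in B cells, a range of 8.81-fold. Ndufa4, named for complex I although its protein is now placed in complex IV, stood at 2000.3 and 1866 CPM in melanoma cells and 239 and 214 CPM in migratory DC, a range of 8.51-fold. At the other end Ndufa2, an accessory subunit of complex I, spanned 1.61-fold (412 and 356 CPM in melanoma cells, 258 and 219 CPM in B cells). Sdha, the flavoprotein of complex II that binds succinate, spanned 1.81-fold and did not follow the sum, with 94.9 and 112 CPM in B cells and 54.96 and 57.6 CPM in macrophages. Uqcrfs1, the Rieske iron-sulfur protein of complex III, Idh3g, a regulatory subunit of the NAD-dependent isocitrate dehydrogenase, and Atp5d, the delta subunit of complex V, spanned 1.91-fold, 1.92-fold and 2.10-fold.

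**Figure D3:**
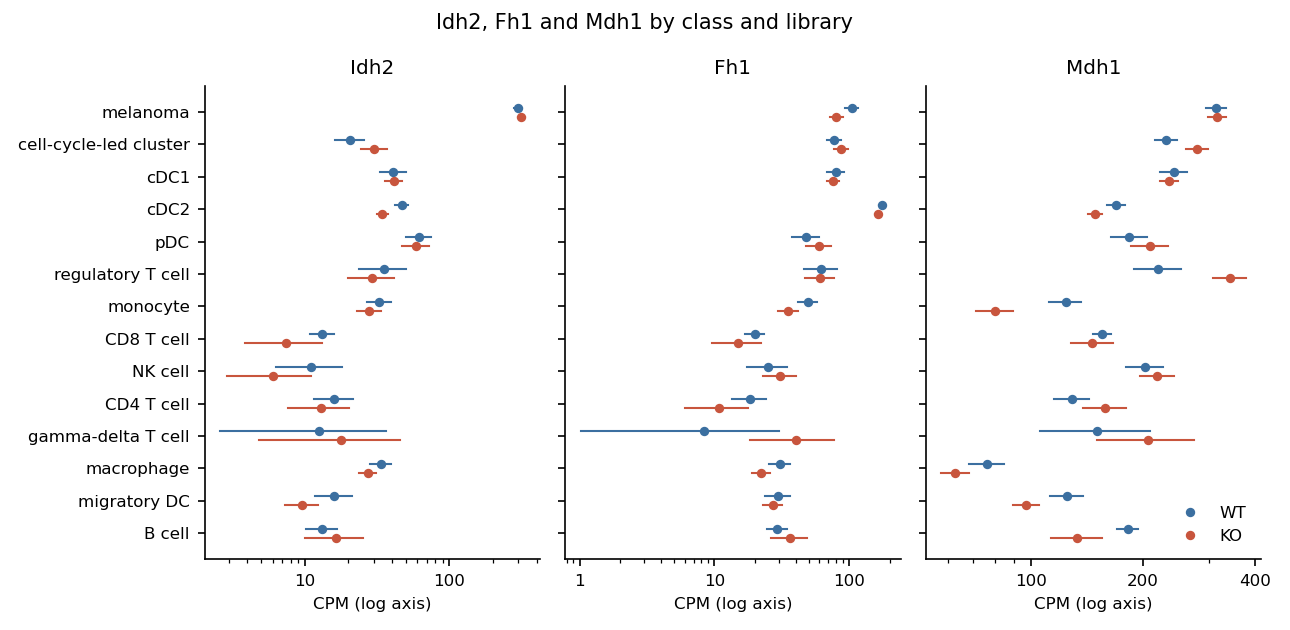
CPM (x axis, log scale, one scale per gene) of Idh2, Fh1 and Mdh1 in 14 classes (y axis, ordered by the summed level of the 41 genes); points are the WT and KO libraries and bars are exact Poisson 95% intervals. Idh2 is highest in melanoma (299 and 314 CPM), Fh1 in cDC2 (176 and 163 CPM), and Mdh1 shows its WT and KO points apart in monocytes and regulatory T cells.

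Correlations of log2 CPM with the summed level were taken over 28 points, 14 classes in 2 libraries, which share each library's depth and give no p. The melanoma points, at 19385 (WT) and 18517 CPM (KO), lie far above the rest, of which the highest is 10403 CPM. They weigh heavily in these correlations, and no value was computed without them. The members are part of the sum; Ndufb9 (Pearson's r 0.969), Cox7a2 (0.956), Uqcrq (0.954) and Cox5b (0.953) followed it most closely, and Sdha (0.0635), Idh3b (0.176), Ndufa6 (0.281) and Dlst (0.387) least. Outside all the lists, the genes most like the sum included Atp5mpl (0.937), Oxct1 (0.934), Timm8b (0.918), Timm13 (0.916), Psmc5 (0.914), Timm17a (0.913), Psmc2 (0.909), Ssr2 (0.907) and Grpel1 (0.903). Atp5mpl encodes a small ATP synthase protein, the Timm genes and Grpel1 encode parts of the mitochondrial import machinery, and Psmc genes encode proteasome ATPases.

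The share of the cycle relative to the complexes also differed by class. The 12 cycle genes had 0.169 UMIs in WT and 0.170 in KO for each UMI of the 29 genes of the complexes in B cells, and 0.158 and 0.149 in cDC2. In macrophages the ratio was 0.105 and 0.106, and in migratory DC 0.107 and 0.102. The ratio was thus alike in the 2 libraries of each of these classes while differing about 1.5 times between them.

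Few of the 41 genes were called between genotypes. A gene was called when its log2 ratio of KO over WT CPM was at least 0.5 in size with an interval that left out 0, among genes with at least 20 UMIs over both libraries. Over 15 classes (the 14 and the high-mitochondrial clusters) 612 pairs of gene and class could be tested, 3 were called higher in KO and 11 lower. These calls fell on 12 genes, and 29 genes were called in no class. By class, the share of all tested genes called ran from 2.6% (NK cells) to 14.9% (melanoma cells) higher. The share called lower ran from 3.16% (cDC1) to 21.8% (high-mitochondrial clusters). Over all kept cells, 0 of 41 genes were called in either direction, against 11.9% of 18301 genes called higher and 17.5% called lower, and the summed level was 8732 and 8813 CPM. Pooling all cells also mixes classes, whose numbers differed between the libraries, so the results below are by class.

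In macrophages, where the Lyz2 locus is active, the 41 genes stood slightly lower in KO, none by the size of a call. Of the 41, 33 had a ratio below 0 and 20 of these an interval below 0, with a median log2 ratio of -0.13 (range -0.48 to 0.37) beside -0.00 over 11066 genes. The calls were 0 higher and 0 lower, against 6.57% and 6.46% of all genes. The summed level was 7494 CPM (7413 to 7576) in the WT library and 6841 CPM (6785 to 6898) in the KO library, a log2 ratio of -0.13.

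In macrophages complex I, which oxidises NADH, held 1994 (WT) and 1688 CPM (KO) (log2 ratio -0.24), with 10 of 11 genes below 0. Ndufc1, an accessory subunit, was lowest in ratio, at 191 CPM (178 to 204) in the WT library and 137 CPM (129 to 145) in the KO library, a log2 ratio of -0.48 (-0.61 to -0.35), just short of the size of a call. Ndufs6, a zinc-binding accessory subunit, was highest in ratio, at 95.1 and 96.1 CPM (0.01). The other complex I genes lay between: Ndufb7, for example, at 205 and 167 CPM (-0.30) and Ndufs1, which carries iron-sulfur clusters, at 26.6 and 24.3 CPM (-0.13, -0.46 to 0.22).

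Complex II held 294 and 292 CPM (-0.01). Sdhb, its iron-sulfur subunit, had the lowest ratio, at 125 and 118 CPM (-0.08), and Sdhc, a membrane anchor, the highest, at 47.6 and 51.7 CPM (0.12, -0.12 to 0.37). Complex III held 659 and 608 CPM (-0.12), with Uqcrc1, a core protein, at 83.4 and 93.0 CPM (0.16) and Uqcrfs1 at 128 and 113 CPM (-0.18, -0.33 to -0.02). The intervals of complexes II and III overlapped between libraries in most genes, so no order among them can be read.

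Complex IV held 2448 and 2272 CPM (-0.11). Cox4i1, a nuclear subunit beside the mitochondrially encoded core, had its highest ratio, at 769.7 and 728 CPM (-0.08, -0.14 to -0.02), and Cox5b the lowest, at 447 and 407 CPM (-0.13). Complex V held 1385 and 1324 CPM (-0.06), with Atp5a1, the alpha subunit of the catalytic head, at 221 and 228 CPM (0.04) and Atp5o, part of the stalk that holds the head, at 195 and 157 CPM (-0.31, -0.44 to -0.19). Within complex V the catalytic subunits Atp5a1 and Atp5b (374 and 374 CPM) were thus nearly equal in the 2 libraries while Atp5o was not.

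The cycle held 713 and 656 CPM (-0.12). Cs, citrate synthase, which starts the cycle, was at 57.7 CPM (50.8 to 65.4) in the WT library and 74.5 CPM (68.7 to 80.6) in the KO library (0.37, 0.15 to 0.58), the only member of the 41 in macrophages with an interval above 0. Fh1 was at 30.5 CPM (25.5 to 36.2) and 22.2 CPM (19.1 to 25.6), a log2 ratio of -0.46 (-0.79 to -0.13). Between them the isocitrate step stood lower, with Idh3b at 63.0 and 49.6 CPM (-0.34, -0.57 to -0.12) and Idh3a at 35.1 and 27.1 CPM (-0.37), while Ogdh and Dlst, the first and second enzymes of the alpha-ketoglutarate dehydrogenase complex, stood at 59.1 and 60.8 CPM and 63.0 and 63.4 CPM.

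**Figure D4:**
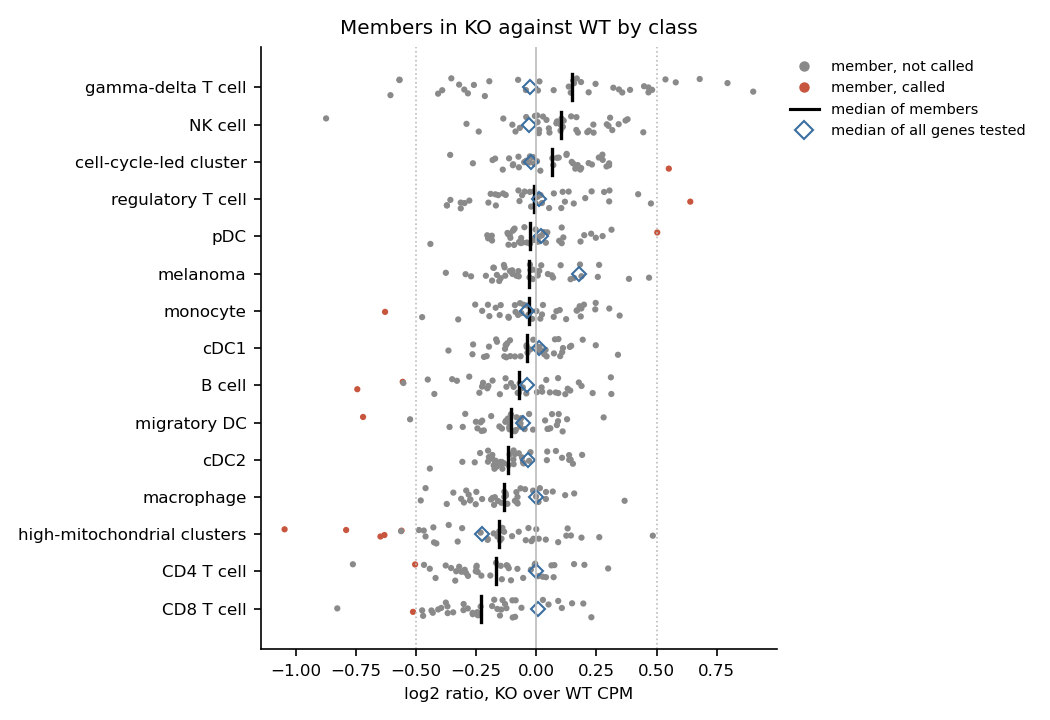
Log2 ratio of KO over WT CPM (x axis) of the 41 genes in each of 15 classes (y axis); each point is a gene, red where called, black bars are medians of the 41 and blue diamonds medians of all genes tested, with dotted lines at the size of a call. The medians run from -0.23 in CD8 T cells to 0.15 in gamma-delta T cells, and 14 points are red.

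The macrophage class was made of 2 clusters. In the larger one, led by Arg1 (441 WT and 751 KO cells), the summed level was 7203 and 6697 CPM, the median ratio was -0.09 and 33 of 41 genes lay below 0. In the smaller one, led by complement C1q genes (69 and 55 cells), the summed level was 11932 and 11742 CPM, the median was 0.04 and Ndufc1 was called lower. For single clusters the share of all genes called was not computed. That cluster also held more cell cycle transcripts, 2141 and 2787 CPM against 502 and 455 CPM in the larger one, and more melanoma marker transcripts, 488 and 651 CPM against 132 and 174 CPM; their part in its higher level was not tested. Between the libraries, marker transcripts of other classes also moved in macrophages: the 10 T cell markers summed to 274 CPM in WT, with a log2 ratio of KO over WT of -2.45, and the 10 B cell markers to 339.5 and 69.2 CPM; all 20 were detected in both libraries, and their part in the ratios was not tested.

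Most genes of the related lists also lay below 0 in macrophages. Of 49 other nuclear subunits of the complexes, 43 lay below 0 (median -0.16) and 0 were called in either direction. Of 77 mitochondrial ribosomal proteins, 70 lay below 0 (median -0.25) and 7 were called lower, 0 higher; the 6 with the largest ratios were Mrps10 (25.4 and 16.5 CPM, -0.63), Mrpl38 (21.01 and 13.7 CPM, -0.62), Mrps28 (42.03 and 27.6 CPM, -0.61), Mrpl12 (57.0 and 38.3 CPM, -0.58), Mrpl19 (33.0 and 22.2 CPM, -0.58) and Mrpl58 (48.5 and 33.4 CPM, -0.54). Of 41 assembly factors 1 was called higher (Sco1, from 7 and 33 UMIs) and 3 lower (Bcs1l, Sco2 and Ndufaf4). Among carriers, uncoupling and peroxide defence genes, 1 of 11 was called lower, Prdx3, a mitochondrial peroxiredoxin, at 47.3 and 31.7 CPM (-0.58). These counts stand beside 6.57% of all genes called higher in macrophages and 6.46% lower. The counts called lower were near that share among ribosomal proteins, assembly factors and carriers, and below it among the other subunits (0 of 49). The counts called higher were below the share of all genes among other subunits (0 of 49), ribosomal proteins (0 of 77) and assembly factors (1 of 41). None of the 9 other cycle and pyruvate entry genes (0), the 4 pyruvate dehydrogenase kinases and phosphatases (0) or the 4 tissue isoforms tested (0) was called.

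Genes of the side branches of the cycle were also called in macrophages. Acod1, which makes itaconate from aconitate, rose from 259 to 438 CPM (log2 ratio 0.76, 0.66 to 0.86), with a UMI in 35.3% of 510 WT and 48.1% of 806 KO macrophages, against 0.970% and 0.669% of CD8 T cells (median depths 5377 and 5108 UMIs), a type that should lack it. Pck2, the mitochondrial PEP carboxykinase, fell from 8.78 to 5.08 CPM (-0.79), so of 13 side-branch genes 1 was called in each direction. Among 10 regulators Pprc1, a relative of PGC-1, rose from 6.47 to 11.1 CPM and Myc fell from 16.6 to 10.8 CPM. Of all genes tested in macrophages 6.57% were called higher and 6.46% lower. With so few genes in these lists, no difference from those shares can be read.

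In monocytes the summed level hardly differed (8449.6 and 8409 CPM; median ratio -0.03 beside -0.04 over all genes; 5 intervals above and 6 below 0). Of the 41 genes 0 were called higher and 1 lower, against 7.88% and 11.8% of all genes. That gene was Mdh1, the cytosolic malate dehydrogenase of the malate-aspartate shuttle, at 124 CPM (401 UMIs) in the WT library and 80.1 CPM (306 UMIs) in the KO library, a log2 ratio of -0.63 (-0.85 to -0.41). Its mitochondrial partner Mdh2 was called in no class but the high-mitochondrial clusters. A UMI of Mdh1 was found in 56.3% of WT and 48.9% of KO monocytes, and at 2000 UMIs in 17.0% and 12.8%. Marker transcripts of B cells summed to 1926 (WT) and 182 CPM (KO) in monocytes, those of T cells to 444 and 47.6 CPM and those of migratory DC to 1131 and 286 CPM. The migratory DC list holds Ccl5, which is also in the CD8 T cell list, so its sum is not particular to DC. B cells held Mdh1 at 182 and 133 CPM, and the part of such marker transcripts in the ratio was not tested.

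Dendritic cells showed few calls. In cDC2 the median ratio was -0.12 with 32 of 41 genes below 0 and 21 intervals below 0, and the calls were 0 and 0, against 4.55% of genes higher and 6.39% lower. Idh2 came closest there, at 46.9 and 34.5 CPM (-0.44, -0.64 to -0.24). The larger cluster of the class (492 WT and 872 KO cells) had a median of -0.13 with Idh2 called lower. The smaller one (134 and 169 cells) had a median of 0.03, with 6 intervals above 0 and Ndufs1 called higher. The difference between these clusters was not tested, and the share of all genes called was not computed within clusters. T cell markers summed to 285 and 36.5 CPM in cDC2 and B cell markers to 616 and 177 CPM, and their part in the ratios was not tested. In cDC1 the median was -0.04 and the calls were 0 and 0, against 3.56% and 3.16%. In migratory DC the median was -0.11 and 1 gene was called lower, none (0) higher, against 8.33% and 5.36% of all genes: Idh2, at 15.9 CPM (48 UMIs) and 9.65 CPM (60 UMIs), a log2 ratio of -0.72 (-1.29 to -0.14). In pDC the median was -0.03 and 1 gene was called higher, none (0) lower, against 4.12% and 3.42%: Sdhc, at 41.8 and 59.3 CPM (0.50, 0.04 to 0.97), from 71 and 88 UMIs.

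The largest shift of the list was in CD8 T cells. Of the 41 genes 34 lay below 0, 21 with an interval below 0 and 0 with one above, at a median of -0.23 (range -0.83 to 0.23) beside 0.01 over 10867 genes, and the summed level was 8765 CPM (8701 to 8830) in the WT library and 7442 CPM (7309 to 7576) in the KO library. All 5 complexes stood lower, complex IV most (2858 and 2326 CPM, -0.30), with Cox4i1 at 981 and 759.9 CPM (-0.37) and Cox5b at 490.1 and 364 CPM (-0.43). The cycle stood at 958 and 858 CPM (-0.16). Sdhb was the 1 gene called, lower, at 121 CPM (975 UMIs) and 84.8 CPM (136 UMIs), a log2 ratio of -0.51 (-0.78 to -0.25); 0 were called higher, against 3.56% of all genes called lower and 5.13% higher.

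This shift was seen inside the clusters of the class but depended on which cells were counted as CD8 T cells. The main cluster (1353 WT and 259 KO cells) stood at 8794 and 7539 CPM with 35 of 41 genes below 0 (median -0.22), and a cluster led by interferon-induced genes (90 and 40 cells) at 8301 and 6754 CPM (median -0.30). At a finer clustering the class also took in a cluster led by Ccl1, Csf2 and Gzmc (100 and 75 cells) that stood at 10751 and 10954 CPM (median 0.05), and the median ratio of the class became 0.034. Its main cluster there (1286 and 240 cells) had a median of -0.22 with 35 of 41 genes below 0. The interferon-led cluster there (114 and 51 cells) had a median of -0.31. Cell cycle genes summed to 1319.8 and 1154 CPM in the class, the 8 CD8 T cell markers to 25758 and 21063 CPM, and ribosomal protein genes held 22.6% and 25.1% of the main cluster's UMIs; their part in the shift was not tested. Of 49 other nuclear subunits 47 lay below 0 there, whereas mitochondrially encoded subunits summed to 8185 and 8845 CPM.

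In CD4 T cells the median was -0.17 with 32 of 41 genes below 0. Uqcrfs1 was called lower, at 143 and 101 CPM (-0.50, -0.79 to -0.22), and 0 genes higher, against 3.29% and 4.38% of all genes. CD8 T cell markers summed to 7871 and 4848 CPM in the class, migratory DC markers to 6544 and 3795 CPM and erythroid markers to 636 and 0 CPM. The CD8 T cell and migratory DC lists share Ccl5, so those sums overlap. In CD8 T cells the migratory DC markers summed to 20438 and 16120 CPM. The part of these transcripts in the shift was not tested. In regulatory T cells the median was -0.01 and Mdh1 was the 1 gene called, higher, at 219 CPM (186 UMIs) and 342 CPM (375 UMIs), a log2 ratio of 0.64 (0.38 to 0.90); 0 were called lower, against 4.26% of genes higher and 5.64% lower. A UMI of Mdh1 was found in 68.8% of 96 WT and 76.6% of 124 KO regulatory T cells (median depths 5391 and 6881.5 UMIs), and at 2000 UMIs in 34.9% and 43.3%. The 8 markers of that class summed to 5195 and 7589.5 CPM and the 10 of NK cells to 915 and 428 CPM; their part in the ratio was not tested.

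NK and gamma-delta T cells stood the other way. In NK cells 32 of 41 genes lay above 0 (median 0.10, beside -0.03 over all genes), 3 with an interval above 0 and 0 with one below, and the summed level was 7734 and 8172 CPM. The calls were 0 and 0, against 2.6% of genes higher and 4.55% lower. Neutrophil markers summed to 264 and 31.4 CPM in NK cells, B cell markers to 451 and 151 CPM and T cell markers to 3032 and 2287 CPM. In gamma-delta T cells 38 genes could be tested, 24 lay above 0 (median 0.15) and the calls were 0 and 0, against 2.8% and 4.68%. Neutrophil markers there summed to 226 and 8.95 CPM and B cell markers to 444 and 134 CPM, and the part of such transcripts in either class was not tested. The gamma-delta counts rest on 66 WT and 52 KO cells. In counts of that class simulated with counting error alone, a change of 2-fold was called in 53.0% of changed genes. The shares were 81.5% in macrophages and 72.5% in CD8 T cells.

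B cells held 2 called genes, both of complex I and both lower. Ndufa1, an X-linked subunit needed for assembly of the complex, stood at 111 CPM (555 UMIs) and 66.5 CPM (81 UMIs), a log2 ratio of -0.74 (-1.10 to -0.41), and Ndufc1 at 105 CPM (523 UMIs) and 71.4 CPM (87 UMIs), -0.56 (-0.90 to -0.23). None (0) was called higher, against 5.29% of genes higher and 7.03% lower, and the median of the 41 was -0.07. Ndufc1 had a ratio below 0 in macrophages, CD8 T cells (101 and 73.0 CPM, -0.47) and CD4 T cells (96.6 and 72.3 CPM, -0.42) as well, each with an interval below 0. In the main B cell cluster (908 and 327 cells) Ndufa1 was called lower too, and the share of all genes called was not computed there. The other B cell cluster held 421 WT and 12 KO cells.

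The cluster led by cell cycle genes stood at 10192 and 10403 CPM, with 8 intervals above 0 and 4 below and a median of 0.07. Idh2 was called higher, at 20.7 CPM (75 UMIs) and 30.3 CPM (93 UMIs), a log2 ratio of 0.55 (0.10 to 1.01), and 0 genes lower, against 6.43% and 7.67% of all genes. The cluster mixes lineages: its median depth was 7403 UMIs in WT and 14948 in KO, T cell markers summed to 5198 and 4006 CPM, cDC1 markers to 649 and 911 CPM and macrophage markers to 98.1 and 223 CPM, and their part in the ratio was not tested. In melanoma cells the median was -0.03, beside 0.18 over all genes, 5 intervals lay above 0 and 13 below, and the calls were 0 and 0, against 14.9% of genes higher and 8.33% lower. Among these were Atp5a1 (504 and 571 CPM, 0.18), Ogdh (125 and 173 CPM, 0.47) and Sucla2 (54.4 and 71.0 CPM, 0.38) above 0 and Atp5o (725 and 591 CPM, -0.29) and Fh1 (-0.38) below. In the melanoma cluster of the finer clustering 33 of 41 genes lay below 0, 22 with an interval below 0 and 3 with one above, at a median of -0.15.

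The 13 subunits encoded by the mitochondrial genome, which pair with the nuclear subunits in complexes I, III, IV and V, did not follow the nuclear genes. In macrophages they summed to 7754 and 7587 CPM (log2 ratio -0.03), in B cells to 12284 and 15227 CPM (0.31) and in monocytes to 8903 and 7494 CPM (-0.25). Over 14 classes the correlation of the nuclear sum with the mitochondrial sum was 0.322 in WT and 0.281 in KO (Spearman's rho 0.121 and 0.235). Of these 13, mt-Nd3 was called higher in KO in 14 of 15 classes, for example at 122 and 229 CPM in macrophages (0.91), and lower in melanoma cells (20.3 and 5.90 CPM, from 68 and 24 UMIs). mt-Nd5 lay below 0 in all 15 classes (ratios from -0.65 to -0.08) and was called in 1 of them. The ratios of mt-Nd4l lay below 0 in all 14 classes tested (-0.96 to -0.04), and it was called lower in 5.

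The high-mitochondrial clusters held little nuclear message for these complexes, near the level of neutrophils. They were set apart by their mitochondrial share, so their level is a description. Against the class of the same best marker list and with the UMIs of nuclear genes as the total, the summed level of the 41 genes had a log2 ratio of -0.88 in WT and -0.93 in KO for B cells, -1.31 and -1.65 for pDC, -0.79 and -0.73 for macrophages and -1.15 and -1.25 for migratory DC. In each of these 4 clusters 31 to 39 of 41 genes lay below 0 in each library. The ratios of the mitochondrially encoded subunits, taken with all UMIs as the total, ran from 0.85 to 2.04. The cluster set against pDC took that list on only 4 markers. At the finer clustering, high-mitochondrial clusters took the cDC2 list (160 WT and 123 KO cells) and the pDC list (157 and 34). The pDC ratios may therefore set unlike cells side by side, which was not tested. The cluster that took the general T cell list was set against the T cell class led by Lef1 and Tcf7 (140 WT and 38 KO cells), at -0.43 and -0.52, with 26 of 39 and 16 of 19 genes below 0. Against CD8 T cells, a subtype that its list does not name, the ratios were -1.13 and -1.01. Over all the high-mitochondrial clusters the median depths were 1123 and 1916 UMIs, and what part depth or RNA quality has in this was not tested. Between genotypes 5 genes were called lower there and 0 higher, against 21.8% and 10.2% of all genes and beside a median of -0.22 over all genes: Ndufs1 (40.0 and 27.1 CPM), Idh3a (21.01 and 10.2 CPM), Ogdh (106 and 67.8 CPM), Suclg1 (31.5 and 20.3 CPM) and Mdh2 (72.7 and 42.04 CPM). The make-up of these clusters differed between the libraries: the T cell one held 610 WT and 51 KO cells, the B cell one 498 and 52, and the macrophage one 215 and 232. T cell markers summed to 1296 and 247 CPM over them, B cell markers to 2229 and 465 CPM and macrophage markers to 821 and 1761 CPM. Their part in the calls was not tested.

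**Figure D5:**
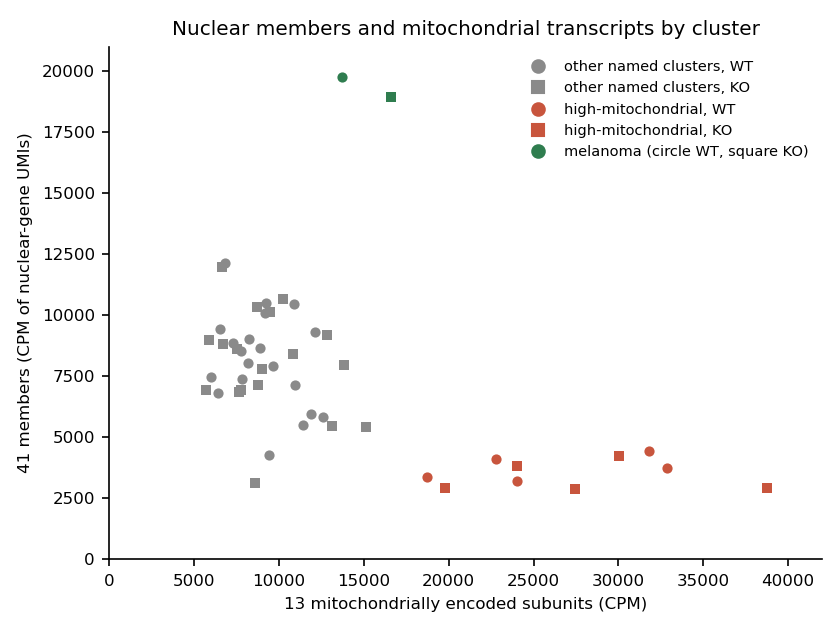
Summed level of the 41 nuclear genes (y axis, CPM with the UMIs of nuclear genes as the total) against the 13 mitochondrially encoded subunits (x axis, CPM) in each named cluster; circles are WT and squares KO. The high-mitochondrial clusters, chosen by their mitochondrial share, lie to the right and low, melanoma cells lie above, and the other clusters show no single line.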

How the data were processed

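Cells sorted as CD45+ from B16F10 tumours were measured in 1 WT and 1 KO library, made with the 10x 3′ v3 kit per the labels' protocols. The deposited matrices hold raw UMI counts per gene and barcode with no normalization by the authors. Build GRCm38, Cell Ranger 3.1.0, bcl2fastq 2.20 and Seurat 4.0.1 are listed in the submitters' processing notes, whereas the file headers name Cell Ranger 4.0.0, and which version made the matrices was not settled. Gene identifiers were placed with GENCODE M21.

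Barcodes under 200 genes or above 15% mitochondrial UMIs were dropped. Scrublet (expected rate 0.06) marked 0 WT cells and 1 KO cell, so it did not work as a doublet filter; the marked cell was left out. Clustering used scanpy 1.11.5 on 2000 variable genes, 30 components, 15 neighbours and Leiden resolution 1.0, with no integration of the libraries, in Python 3.11.15 with numpy 2.4.6, scipy 1.17.1, pandas 2.3.3 and leidenalg 0.10.2. A cluster took the name of its best marker list when 3 or more of its markers were seen in 10% or more of the cells at over 2 times the level elsewhere. Clusters with a mean Scrublet score of at least 0.18 stayed unnamed, and those with a mean mitochondrial share above 7% were kept apart; both limits were chosen with the clusters in view.

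UMIs were summed per class and library and scaled to CPM with exact Poisson intervals; ratios carry exact conditional binomial intervals, and shares of cells exact binomial (Clopper-Pearson) ones, all at 95%. PCR copies are removed by UMIs, but mice were pooled, so intervals cover counting error only. Ratios needed 50 cells in each library and levels 20 cells. In counts simulated with Poisson error alone, the intervals held the true ratio in 95.6% to 97.0% of genes. The intervals assume that same error, so this checks their computation and not their width for real cells or mice. A 3′ UMI count is not scaled by gene length. Atp5o has 2 gene models of that symbol, and the one with counts was used.

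The genes and lists were chosen with earlier results of these data known. Every one of the 41 genes is accounted for; in each complex the highest and lowest ratio in macrophages, every called gene, the 5 widest and 5 narrowest ranges over classes, up to 6 called genes a related list and the 10 genes most like the sum are named, except 1 of these last that is not reported here. Genes outside the rule, such as the near misses, were chosen after their values were seen. Alternatives varied the scaling, filters, clustering, naming, depth and size of a call.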

Additional observations from a re-analysis of the deposited data

Results flagged for a closer look

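Mdh1, the cytosolic malate dehydrogenase, was called in opposite directions in 2 classes. Its log2 ratio of KO over WT was -0.63 in monocytes (124 and 80.1 CPM) and 0.64 in regulatory T cells (219 and 342 CPM). Idh2, the NADP-dependent isocitrate dehydrogenase, was likewise called in opposite directions, at 0.55 in the cluster led by cell cycle genes (20.7 and 30.3 CPM) and -0.72 in migratory DC (15.9 and 9.65 CPM). With 1 library a genotype the difference between the classes was not tested in either gene.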

How the results depend on the processing

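No paired analysis was possible because there was 1 library a genotype. The median ratio of each class was set against an interval from the median lower bound to the median upper bound of its single genes. That is the width for a typical gene, not for a median over genes. Atp5o in gamma-delta T cells, for example, had an interval of -0.84 to 0.40. Staying within it is thus a weak check and does not show that a median was stable. The median left it in CD8 T cells at Leiden resolution 2.0 (0.034 in place of -0.23). It also did so in melanoma cells thinned to 2000 UMIs (0.15 in place of -0.03). Under the other alternatives that gave a value, the class medians stayed within it. Of 612 pairs, 3 were called higher and 11 lower; the counts were 5 and 7 with at most 8% mitochondrial UMIs, 6 and 15 with trimmed mean scaling, 7 and 22 after thinning (575 pairs), 4 and 17 without the 6% of cells with the highest Scrublet scores, 3 and 5 with the high-mitochondrial clusters given their best list (14 classes) and 14 and 55 at a log2 ratio of 0.3. The other alternatives gave 2 to 4 higher and 8 to 14 lower. The share of all genes called is given for the main setting only, so these counts cannot be set against all genes. Size factors moved the median of all genes in melanoma cells from 0.18 to 0.04 and in the high-mitochondrial clusters from -0.22 to -0.01. Thinned to 2000 UMIs, the shares of cells with a UMI, in WT and KO, went from 67.4% and 67.1% to 26.5% and 22.6% (Fh1 in cDC2), from 7.37% and 4.35% to 3.30% and 1.29% (Fh1 in CD4 T cells), from 68.8% and 76.6% to 34.9% and 43.3% (Mdh1 in regulatory T cells) and from 56.3% and 48.9% to 17.0% and 12.8% (Mdh1 in monocytes). With components centred per library CD8 and CD4 T cells gave no value, since too few KO cells were named; with at least 5000 UMIs a cell gamma-delta T cells and the high-mitochondrial clusters gave none. Means over cells have no counting interval and gave no calls. The cause of each change was not tested.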

Other observations

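Melanoma cells that passed the CD45+ sort held most UMIs of Ppargc1a, which had 1010 (WT) and 2025 UMIs (KO) over all kept cells. They also stood above macrophages in Me1, a gene of the side branches of the cycle. Ppargc1a, the coactivator PGC-1 alpha, which drives mitochondrial gene expression, stood at 288 (WT) and 486 CPM (KO) in melanoma cells (965 and 1977 UMIs), against 6.23 and 7.86 CPM in NK cells and 2.61 and 4.93 CPM in B cells. Me1, the cytosolic malic enzyme, stood at 54.7 and 60.2 CPM in melanoma cells and at 1.39 and 0.121 CPM in macrophages.

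Cox6a2, a tissue isoform of a complex IV subunit and one of the pDC markers used for naming, stood at 1987 and 1636 CPM in pDC, with a UMI in 93.4% and 91.6% of cells. Acod1 was highest in neutrophils, at 2338 and 3739 CPM, with a UMI in 84.1% of 145 WT and 91.7% of 24 KO cells. A single cell can set such a value: in the cluster led by cell cycle genes Cox6a2 was called higher in KO (4.41 and 18.2 CPM), and its 56 UMIs there came from 1 of 181 cells, while the 579 CPM of Cox6a2 in KO neutrophils came from 1 of 24 cells.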
